A study of Mus musculus with 536 samples.

Results

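Hbb-b2, Hbb-bh1, Hbb-y and Hba-x are the adult and embryonic globin genes described here, 4 of the 12393 genes that single-gene probe sets measured in mouse peripheral blood. They were listed by name as members of the globin family, and each was read from its brightest probe set over all arrays. The blood came from C57BL/6 mice 10 to 12 weeks old, drawn by terminal cardiac puncture, in mice given one total body dose of caesium-137 gamma radiation and in unirradiated mice. RNA was depleted of globin transcripts before it was hybridised to the Affymetrix Mouse 430A 2.0 array, so the values are of globin RNA left after that step. Each value is a log2 signal, and a difference of 1 on this scale is a doubling.

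The first set of mice covered 7 doses (100 to 300 cGy in steps of 100, then 450, 600, 800 and 1050 cGy), against 0 cGy, at 6 times from 6 to 168 hr after exposure (24, 48, 72 and 120 hr between them), with 240 mice in 48 groups of 5. The second held 115 male and 111 female mice given the growth factor GCSF, the bacterial lipopolysaccharide LPS or no agent with 200, 300 or 600 cGy, against 0 cGy, at 6 and 24 hr, in groups of 3 to 5. The smaller agent set of 50 mice had GCSF, LPS or no agent with 150 or 600 cGy, against 0 cGy, at 6 hr, in groups of 5 or 6. The 168 hr set of 18 mice had 10 mice at 168 hr after 150 cGy, against 3 unirradiated mice of the same time, with 5 more unirradiated mice drawn at 6 or 24 hr. The labels give no allele or transgene, give sex in the second set alone and do not say when the agents were given.

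Haemoglobin is built from 2 alpha-like and 2 beta-like chains around haem. In the mouse, the first red cells, formed in the yolk sac, use the embryonic chains: Hba-x encodes the alpha-like zeta chain, and Hbb-y and Hbb-bh1 encode the beta-like epsilon-y and beta-h1 chains. Red cells made later in the fetal liver and adult bone marrow switch to the adult chains, of which Hbb-b2 is a beta gene. Circulating red cells have no nucleus, and the globin RNA in adult blood is carried mostly by reticulocytes, the youngest red cells, which lose it within days. Irradiation of the marrow is known to stop the supply of reticulocytes, with recovery later at doses the animal survives. C57BL/6 mice carry a form of the beta-globin cluster whose adult genes are named Hbb-bs and Hbb-bt, so the Hbb-b2 probe set was read as a signal of adult beta-globin sequence.

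Hbb-b2 was read from probe set 1427866_x_at, Hbb-y from 1436717_x_at, Hbb-bh1 from 1450736_a_at and Hba-x from 1448716_at. The x in a probe set's name is the maker's mark for probes that may match other transcripts too. Hbb-y had 2 further probe sets, Hbb-bh1 had 2 and Hbb-b2 had 1. The mean of Hba-x over all arrays, 5.00, lay below 5.27, the 30th percentile of gene means, so this gene was measured near the low end of the scale. Promoters from RefSeq (build GRCm38.p6) were at hand for 2 of the 4 genes, Hbb-y and Hba-x, and are shown as their regulatory sequence. At 120 hr Hbb-y rose at the doses where the adult signal fell, and Hba-x did not. Each line runs from 250 bases before the start of the gene to 50 bases after it, 5′ to 3′ on the gene's own strand, and the capitals mark the motifs named after them on that strand.
Hbb-y, chr7:103853158-103853457, minus strand: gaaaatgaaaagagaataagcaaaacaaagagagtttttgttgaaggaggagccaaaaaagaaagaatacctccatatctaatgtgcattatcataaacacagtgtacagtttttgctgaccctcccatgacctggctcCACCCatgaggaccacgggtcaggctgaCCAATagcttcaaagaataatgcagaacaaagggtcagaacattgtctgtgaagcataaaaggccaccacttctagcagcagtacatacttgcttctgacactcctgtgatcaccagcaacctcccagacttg
Hba-x, chr11:32276350-32276649, plus strand: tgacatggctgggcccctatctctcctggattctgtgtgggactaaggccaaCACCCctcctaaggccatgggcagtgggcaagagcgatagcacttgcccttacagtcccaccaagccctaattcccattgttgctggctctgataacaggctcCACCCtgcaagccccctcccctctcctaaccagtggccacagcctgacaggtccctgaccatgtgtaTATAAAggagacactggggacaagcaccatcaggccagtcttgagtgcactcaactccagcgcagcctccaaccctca

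CACCC is the core of the sites that Klf1, the erythroid activator of adult beta globin, is known to bind. The Hbb-y window held CACCC at -111, counted from the gene's start, and the box named CCAAT at -83. The Hba-x window held CACCC at -198 and -95 and the box named TATAAA at -28. Searched on both strands, CACCC was found in 56.7% of 27025 mouse promoter windows, CCAAT in 37.9% and TATAAA in 14.2%. GATAAG, a form of the motif of the erythroid factor Gata1, was in neither window, against 7.43% of all windows. Other forms were not searched. The letters tgataa stand in the Hba-x line, and in the Hbb-y line on the other strand, as ttatca. The absence of GATAAG thus does not show that a window lacks a Gata1 site. Overlaps between motifs were not removed, and a match describes letters only.

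Array medians ran from 5.61 to 5.93 over all arrays, and every array was used. The labels number the mice, and 50 of the 240 mice of the first set, in 16 irradiated groups and in no 0 cGy group, have a number of 10 or higher. At 48 hr after 200 and 300 cGy these mice stood apart for all 4 genes: the single mouse with a lower number kept globin levels near those of 0 cGy mice, and the 4 mice numbered 11 to 14 did not. In the other groups they stood apart for at most 3 of the genes, as after 450 cGy at 72 hr, where Hbb-b2 was 5.72 and 5.75 in them, against 6.34 to 6.65 in the rest. What the numbers stand for is not given, so the main results on those groups are stated with and without these mice. The mean of 3717 dim genes, those under 5.27, also differed between groups, and is given beside the results it touches. Results were also recomputed after dropping, in turn, the mouse at each place in the groups, ordered by array run and number. The array run is a reading of the middle part of the sample titles, which the labels do not explain. Differences were tested with limma, with p adjusted by the Benjamini-Hochberg method over all 12393 genes. A gene is said to have risen or fallen where the adjusted p was at most 0.05. This p sets a difference of group means against the spread between mice within groups, pooled over the groups of a set. All doses of a time were set against the same 5 unirradiated mice, so their differences share that group.

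Over the 240 mice of the first set, Hbb-b2 ranged from 4.69 to 12.23 with a median of 9.25, and its group means from 4.98 to 11.42. Hbb-y ranged from 4.24 to 10.91 with a median of 7.82. The range was narrower for Hbb-bh1, from 4.07 to 7.14, and for Hba-x, from 3.17 to 6.44. Within a group of 5 mice the median SD was 0.43 for Hbb-b2, 0.44 for Hbb-y, 0.27 for Hbb-bh1 and 0.29 for Hba-x, so that the range over groups was many times the spread within them.

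**Figure D1:**
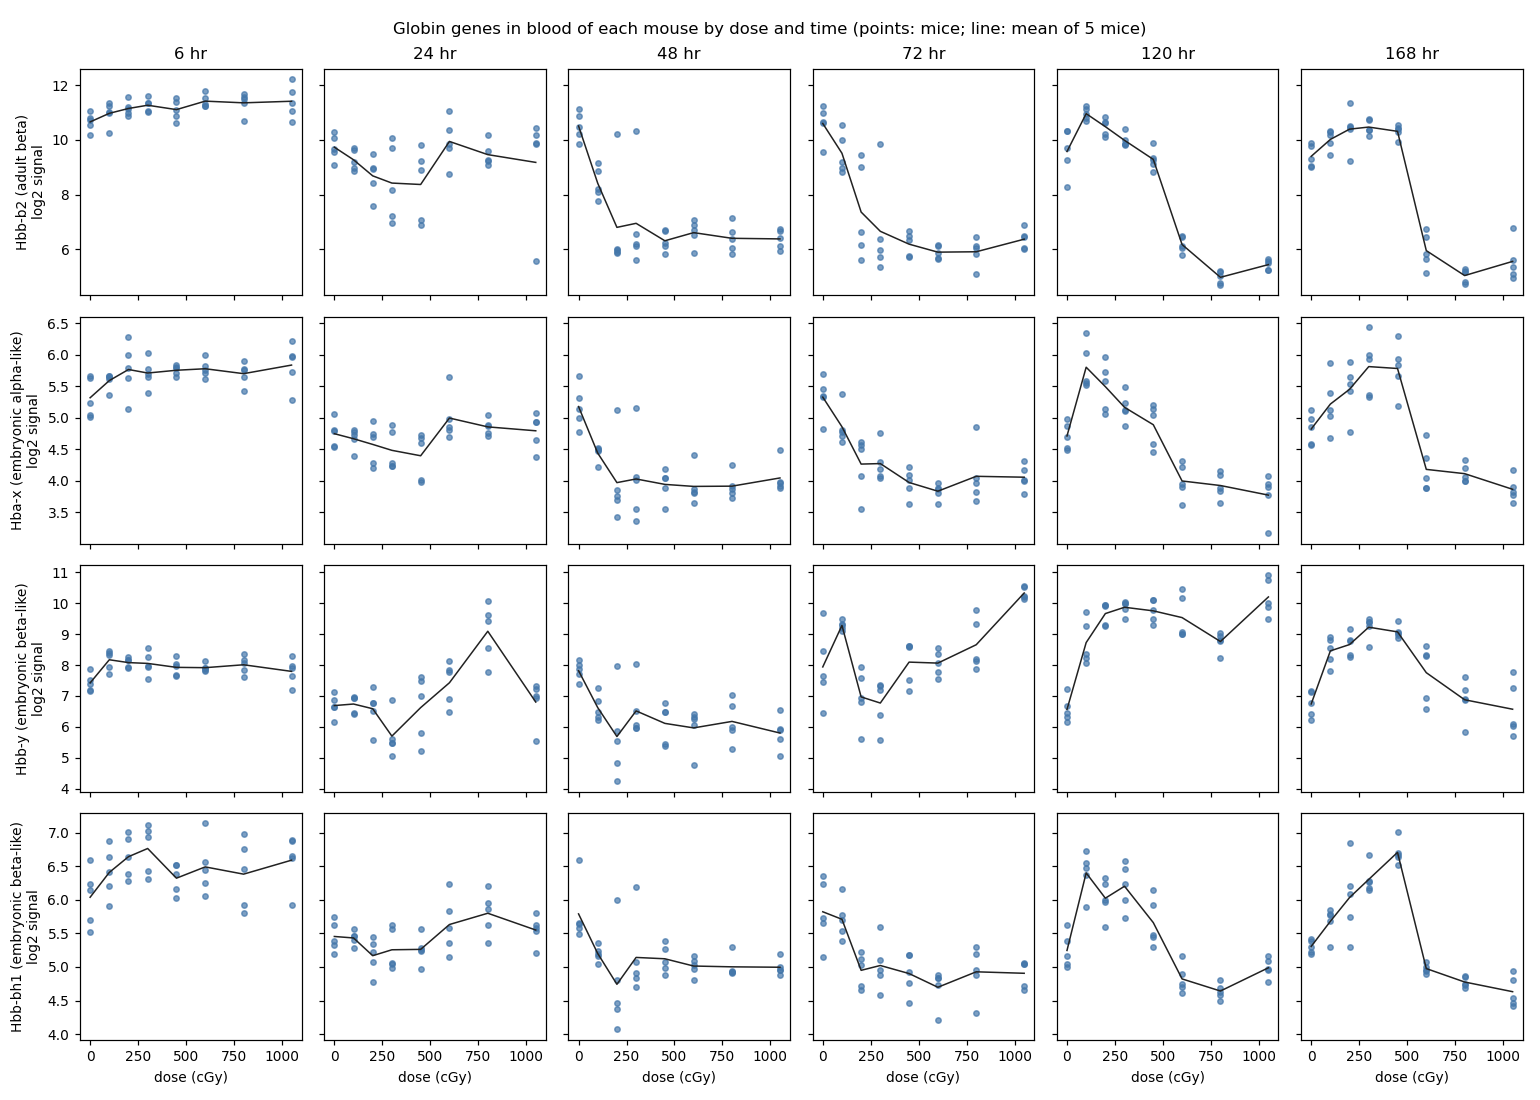
Log2 signal of Hbb-b2, Hba-x, Hbb-y and Hbb-bh1 (rows) against dose in cGy at 6 to 168 hr (columns) in the first set of 240 mice; points are mice and lines join the means of 5 mice. At 48 hr Hbb-b2 lay between 5.59 and 10.31 in irradiated mice, with 33 of 35 below the lowest 0 cGy mouse at 9.84. Over the doses of 48 hr 18.2% to 27% of all genes fell. At 120 hr every irradiated mouse had Hbb-y above the highest 0 cGy mouse at 7.21.

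Adult beta globin changed little at 6 hr, fell at 48 and 72 hr, and then divided by dose: at 120 and 168 hr it was back at or above the unirradiated level after 100 to 450 cGy and stayed low after 600 cGy or more. At 6 hr the differences of Hbb-b2 from 0 cGy lay between 0.32 and 0.76 and none passed the test. At 24 hr Hbb-b2 fell after 300 cGy (-1.31 ± 0.50, SE) and 450 cGy (-1.36 ± 0.50), doses at which 17.9% and 18.3% of all genes fell. At 24 hr the differences at the other doses ran from -1.05 to 0.21 and did not pass, and when 1 place was dropped Hbb-b2 fell at 0 to 2 doses, at 0 without the mice in place 5. With the mean of 12 hepatocyte genes as a covariate the fall after 300 cGy did not pass (-1.06, limma adjusted p 0.11). The liver gene Alb lay between 14.04 and 14.50 in those 5 mice, against 5.49 to 13.70 at 0 cGy.

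At 48 hr Hbb-b2 had 5.85, 6.53, 6.70, 6.90 and 7.06 in the mice given 600 cGy, against 9.84, 10.21, 10.48, 10.87 and 11.14 in the 0 cGy mice. The groups did not overlap, and the difference was -3.90 ± 0.50 (limma, adjusted p over all genes). It fell at all 7 doses, by 2.10 on the log2 scale after 100 cGy and by 3.56 to 4.20 after higher doses. At 48 hr the share of all genes that fell was 18.2%, 25.7%, 18.8%, 20.6%, 22.8%, 27% and 26.8% from 100 to 1050 cGy. Without the mice numbered 10 or higher, Hbb-b2 fell at 5 of 7 doses, and the lone mice left at 200 and 300 cGy, with 10.23 and 10.31, differed from 0 cGy by -0.28 and -0.20.

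At 72 hr Hbb-b2 had 5.65, 5.69, 5.87, 6.12 and 6.14 after 600 cGy, against 9.54, 10.60, 10.65, 10.97 and 11.24 in the 0 cGy mice. That is a difference of -4.71 ± 0.50, lower in 5 of 5 array runs, each of which holds 1 mouse of every group. All 15 mice given 600 to 1050 cGy lay below all 0 cGy mice, as in 9.26% of all genes. Hbb-b2 fell at 6 of 7 doses at 72 hr, by 3.24 to 4.71, with 9.51 ± 0.73 after 100 cGy, against 10.60 ± 0.65 (SD, n = 5 each) at 0 cGy, not passing the test. From 200 to 1050 cGy the share of all genes that fell at 72 hr was 21.3%, 23.9%, 25%, 31.3%, 29.2% and 26.6%. Without the mice numbered 10 or higher, Hbb-b2 fell at 5 of 7 doses at 72 hr, 200 cGy being lost with 1 mouse left.

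At 120 hr Hbb-b2 rose after 100 cGy, with 10.70, 10.81, 10.93, 11.13 and 11.22, against 8.26, 9.25, 9.71, 10.31 and 10.34 at 0 cGy. The 2 groups did not overlap and differed by 1.38 ± 0.50, at a dose where 39.5% of all genes rose. After 1050 cGy the values were 5.23, 5.25, 5.51, 5.57 and 5.63, and the difference was -4.14 ± 0.50. Hbb-b2 fell at 600, 800 and 1050 cGy, as did 22.6%, 28.5% and 25.3% of all genes. Every one of the 15 mice of these doses lay below every 0 cGy mouse, as in 13% of genes. At 120 hr these doses alone held mice numbered 10 or higher: 4 after 600 cGy, 2 after 800 cGy and 3 after 1050 cGy. Without them the differences were -3.07 after 600 cGy, with 1 mouse left, -4.70 after 800 cGy and -3.97 after 1050 cGy. Between 450 cGy, with 9.29 ± 0.38, and 600 cGy, with 6.17 ± 0.30, the group means were far apart relative to either SD.

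At 168 hr the same division by dose was seen. Hbb-b2 had 9.92, 10.29, 10.40, 10.42 and 10.53 after 450 cGy and 5.12, 5.63, 5.82, 6.44 and 6.74 after 600 cGy, against 9.0, 9.03, 9.31, 9.76 and 9.89 at 0 cGy. It rose after 300 cGy (1.07 ± 0.50), where 40.7% of all genes rose, and fell after 600, 800 and 1050 cGy by 3.45, 4.36 and 3.84, where 21.7%, 27.4% and 33.3% of all genes fell. All 15 mice given 600 cGy or more lay below all 0 cGy mice, as in 11% of genes. At 168 hr, too, only these doses held mice numbered 10 or higher: 4 after 600 cGy, 4 after 800 cGy and 3 after 1050 cGy. Without them the differences were -2.96 after 600 cGy and -4.67 after 800 cGy, with 1 mouse left in each group. After 1050 cGy, with 2 mice left, the difference was -4.19. One mouse given 1050 cGy, with 6.77, lay above the other 4, which had 4.96 to 5.62, and this mouse also had 12.95 for Alas2, which makes the first precursor of haem in red cells.

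The mean of the dim genes rose and fell with these doses. At 120 hr it was 4.56 after 100 cGy and 4.27 after 1050 cGy, against 4.15 at 0 cGy, and at 72 hr it was between 4.18 and 4.24 in irradiated mice, against 4.38 at 0 cGy. With that mean as a covariate, Hbb-b2 still fell after 600 cGy at 72 hr (-3.68 ± 0.44) and at 3 of 7 doses at both 120 and 168 hr, while it rose at no dose. Its rises after 100 cGy at 120 hr and 300 cGy at 168 hr moved with the level of dim probe sets. When 1 place was dropped, the rise at 120 hr was lost without place 3 and that at 168 hr without place 2, 3 or 4. Fewer reticulocytes and less globin RNA in each cannot be told apart in whole blood. The values are also of globin RNA left after depletion, and whether that step removed the same share from every sample was not tested.

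Probe sets shared by several adult genes fell at the same doses. Set 1417184_s_at, which matches the adult beta genes Hbb-bt, Hbb-bs, Hbb-b2 and Hbb-b1, had 10.23 ± 0.96 after 600 cGy at 72 hr, against 14.42 ± 0.10 at 0 cGy. At 120 hr it had 14.32 ± 0.07 after 300 cGy and 8.79 ± 1.69 after 1050 cGy, against 14.31 ± 0.13 (SD, n = 5 each) at 0 cGy. The 3 sets shared by the adult alpha genes Hba-a1 and Hba-a2 differed from 0 cGy by -2.46 to -5.70 after 600 cGy at 72 hr and by -3.58 to -6.91 after 1050 cGy at 120 hr. The shared beta set at 0 cGy and after 300 cGy lay near 14.85, the highest value of the table, so values this close to each other do not show an unchanged level. The other Hbb-b2 set, 1427865_at, is dim, with a mean of 5.14, and differed by 0.30 (adjusted p 0.218) after 600 cGy at 72 hr, so the fall of Hbb-b2 rests on 1 of its 2 own sets and on the shared set.

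**Figure D2:**
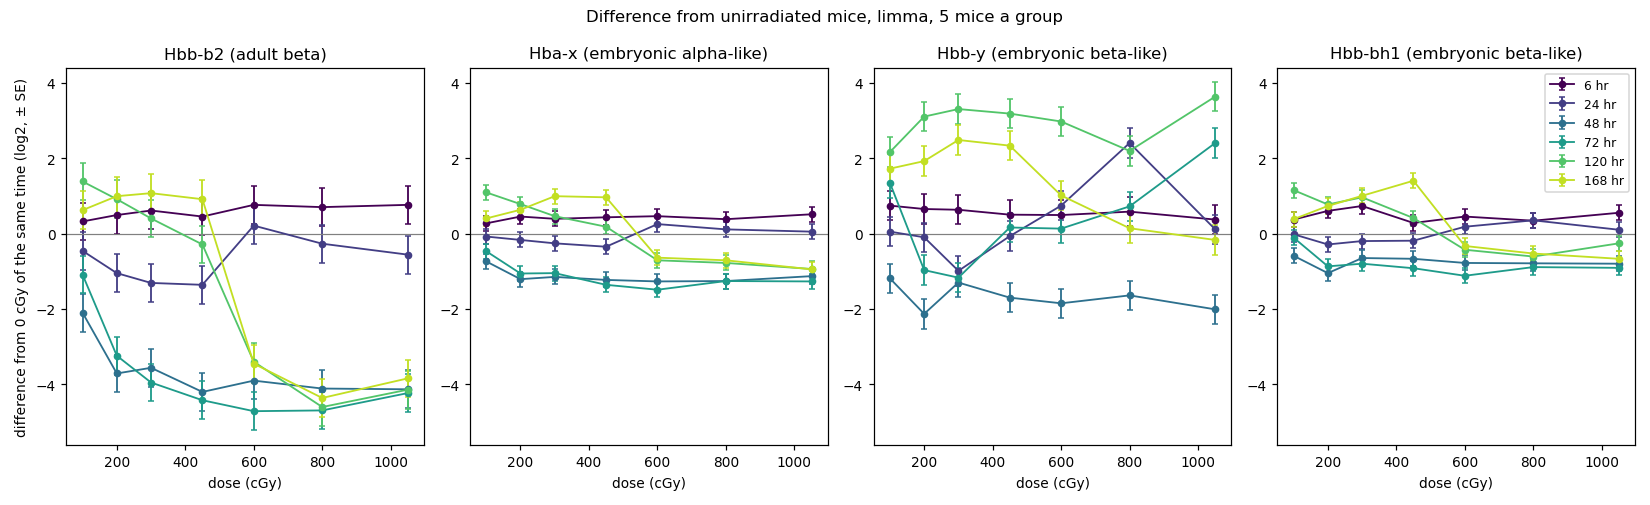
Fitted difference from the 0 cGy mice of the same time (log2, ± SE, 5 mice a group) against dose for each globin gene, 1 line a time. At 120 hr Hbb-b2 runs from 1.38 at 100 cGy to -4.60 at 800 cGy, whereas Hbb-y lies between 2.16 and 3.63 at every dose.

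The embryonic alpha-like gene Hba-x followed the adult beta signal on a narrower scale. At 48 hr it fell at all 7 doses, by 0.74 to 1.27, with 3.65, 3.80, 3.83, 3.87 and 4.41 after 600 cGy, against 4.77, 5.00, 5.14, 5.32 and 5.66 at 0 cGy. At 72 hr it fell at 6 of 7 doses, and after 600 cGy it had 3.64, 3.81, 3.87, 3.89 and 3.97, against 4.83, 5.33, 5.34, 5.45 and 5.69. Neither pair of groups overlapped, and the 72 hr difference was -1.49 ± 0.20. Without the mice numbered 10 or higher, Hba-x fell at 5 of 7 doses at both times.

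At 120 hr Hba-x rose after 100 cGy (1.09 ± 0.20) and 200 cGy (0.78 ± 0.20) and fell at 600, 800 and 1050 cGy by 0.71, 0.78 and 0.94, the call at 600 cGy being lost without the mice numbered 10 or higher (-0.76, limma adjusted p 0.0781). At 168 hr it rose after 200, 300 and 450 cGy (0.63, 0.99 and 0.96) and fell at the 3 highest doses by 0.64 to 0.95. With the dim-gene mean as a covariate, Hba-x rose at no dose at 120 or 168 hr and still fell at 3 of 7 doses at each time. With the hepatocyte mean as a covariate it fell at 1050 cGy alone at each time: after 600 and 800 cGy the differences were -0.43 and -0.47 at 120 hr (limma adjusted p 0.093 and 0.0673) and -0.33 and -0.40 at 168 hr (limma adjusted p 0.254 and 0.135). Since its own level is that of a dim gene, the rises cannot be told apart from those of dim probe sets in general.

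Hbb-bh1 took the same course. At 6 hr it rose after 200 cGy (0.60 ± 0.20), 300 cGy (0.73 ± 0.20) and 1050 cGy (0.55 ± 0.20), where 23%, 25.4% and 28.3% of all genes rose, and Hba-x rose at 1050 cGy too (0.51 ± 0.20). The dim-gene mean at 6 hr was 4.56 to 4.67 in irradiated mice, against 4.37 at 0 cGy, and with it as a covariate neither gene rose at any dose. When 1 place was dropped, Hbb-bh1 rose at 0 to 4 doses at 6 hr and Hba-x at 0 to 3, both at 0 without place 4. At 48 hr Hbb-bh1 fell at all 7 doses by 0.59 to 1.05, and at 72 hr at 6 of 7 by 0.80 to 1.12. At 72 hr it had 4.21, 4.73, 4.83, 4.84 and 4.88 after 600 cGy, against 5.15, 5.65, 5.73, 6.23 and 6.35 at 0 cGy, with no overlap. Without the mice numbered 10 or higher, Hbb-bh1 fell at 5 of 7 doses at 48 hr and at 3 of 7 at 72 hr, and without place 5 it fell at 4 of 7 at 48 hr.

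At 120 hr Hbb-bh1 had 5.73, 6.00, 6.24, 6.46 and 6.58 after 300 cGy, against 5.00, 5.05, 5.16, 5.39 and 5.63 at 0 cGy. It rose there (0.96 ± 0.20) and also with the dim-gene mean as a covariate (0.53 ± 0.16, adjusted p 0.00669). At 168 hr it had 6.52, 6.64, 6.67, 6.69 and 7.01 after 450 cGy, against 5.20, 5.22, 5.30, 5.39 and 5.42 at 0 cGy, a difference of 1.40 ± 0.20 that was 0.54 ± 0.17 (adjusted p 0.0127) with the covariate. Rises of Hbb-bh1 at the other doses of 120 and 168 hr did not pass with the covariate. Hbb-bh1 fell at 1 of 7 doses at 120 hr, by 0.61 after 800 cGy. The difference was -0.54 ± 0.23 without the mice numbered 10 or higher and -0.35 (limma adjusted p 0.201) with the hepatocyte mean as a covariate. At 168 hr it fell at 2 of 7 doses, 800 and 1050 cGy. After 800 cGy it had 4.69 to 4.86, and the difference with the covariate was -0.27 (limma adjusted p 0.341). Only 1 of these mice was numbered below 10. After 1050 cGy at 168 hr Hbb-bh1 fell by 0.67, with every mouse below every 0 cGy mouse. That difference was -0.56 (limma adjusted p 0.0596) without the mice numbered 10 or higher and -0.41 (limma adjusted p 0.12) with the hepatocyte mean as a covariate. Over the doses 22.3% to 31.7% of all genes fell at 120 hr and 9.96% to 33.3% at 168 hr.

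Hbb-y, the embryonic epsilon-y gene, fell at 48 hr with the other 3 genes and then parted from them. At 48 hr it had 4.77, 6.07, 6.24, 6.33 and 6.43 after 600 cGy, against 7.38, 7.70, 7.87, 7.99 and 8.15 at 0 cGy, a difference of -1.85 ± 0.39. It fell at all 7 doses by 1.19 to 2.13, and without the mice numbered 10 or higher at 5 of 7, the lone mice left at 200 and 300 cGy having 7.96 and 8.05. These 2 mice were also the high ones of their groups for the other 3 genes, so that 33 of 35 irradiated mice lay below all 0 cGy mice for each of the 4 genes. Over the doses of 48 hr 18.2% to 27% of all genes fell, and the share of genes with such a separation was not counted. Hbb-b2, Hba-x and Hbb-y fell at 6 of 7 doses at 48 hr and Hbb-bh1 at 5 of 7 with the dim-gene mean as a covariate.

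At 72 hr the course of Hbb-y over dose had no single direction. It rose after 100 cGy, with 9.10, 9.20, 9.29, 9.34 and 9.48, and after 1050 cGy, with 10.14, 10.19, 10.22, 10.54 and 10.57, against 6.45, 7.44, 7.66, 8.47 and 9.68 at 0 cGy. The differences were 1.34 ± 0.39 and 2.40 ± 0.39, at doses where 9.47% and 23.8% of all genes rose. All 5 mice given 1050 cGy lay above the 0 cGy mice, and the 100 cGy mice overlapped the highest of them. After 200 and 300 cGy it fell by 0.97 and 1.17, and after 450 to 800 cGy the differences of 0.13 to 0.72 did not pass. Hbb-y fell at no dose at 72 hr (-0.64 and -0.84 after 200 and 300 cGy) and rose at 3, 800 cGy included, with the dim-gene mean as a covariate. With the hepatocyte mean as a covariate it also rose after 800 cGy (1.02 ± 0.35). When 1 place was dropped, Hbb-y fell at 0 to 2 doses, at 0 without place 5, and rose at 1 to 3, at 1 without place 3.

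In 2 of these 72 hr groups the mice numbered 10 or higher had lower Hbb-y than the rest. After 800 cGy they had 7.86 to 8.19, against 9.34 and 9.77 in the 2 others, and after 450 cGy 7.15 and 7.51, against 8.59 to 8.62 in the 3 others. Without them Hbb-y rose at 3 of 7 doses at 72 hr, 800 cGy included (1.62 ± 0.42, limma adjusted p 9.05e-04), and fell at 1. After 600 cGy they overlapped the others.

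At 120 hr Hbb-y rose at every dose. It had 9.49, 9.81, 9.99, 10.02 and 10.04 after 300 cGy and 9.48, 9.89, 10.00, 10.74 and 10.91 after 1050 cGy, against 6.17, 6.31, 6.45, 6.69 and 7.21 at 0 cGy. All 35 irradiated mice, with 8.06 to 10.91, lay above all 5 unirradiated mice, as in 1.28% of all genes. From 100 to 1050 cGy the differences were 2.16, 3.10, 3.30, 3.18, 2.97, 2.19 and 3.63 (SE 0.39 each), at doses where 39.5%, 37.5%, 20.2%, 18.6%, 23.6%, 26.2% and 24.8% of all genes rose.

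With the dim-gene mean as a covariate Hbb-y rose at 7 of 7 doses at 120 hr, by 2.99 ± 0.39 after 300 cGy and 3.41 ± 0.38 after 1050 cGy, and without the mice numbered 10 or higher it also rose at 7 of 7. With the mean of 12 hepatocyte genes as a covariate it rose at 7 of 7 too, and the sizes at high doses were larger, with 3.95 after 600 cGy, 3.28 after 800 cGy and 4.73 after 1050 cGy. That mean was itself raised at these doses, so the larger sizes extend a slope shared by all groups far from its level at 0 cGy. It was higher in 5 of 5 array runs after 300, 600 and 1050 cGy. The 3 Hbb-y probe sets gave 3.30, 3.33 and 2.40 after 300 cGy and 3.63, 3.54 and 2.88 after 1050 cGy.

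At 168 hr Hbb-y rose after 100 to 600 cGy, and the differences after 800 and 1050 cGy did not pass. It had 8.59, 9.26, 9.38, 9.40 and 9.50 after 300 cGy, against 6.22, 6.43, 6.77, 7.12 and 7.17 at 0 cGy, and all 20 mice given 100 to 450 cGy lay above all 0 cGy mice, as in 3.99% of genes. The differences from 100 to 600 cGy were 1.72, 1.92, 2.48, 2.33 and 1.01, where 5%, 29.8%, 40.7%, 37.9% and 20.3% of all genes rose. After 800 cGy, with 5.82, 6.86, 6.91, 7.18 and 7.62, and after 1050 cGy, with 5.69, 6.04, 6.10, 7.26 and 7.77, the mice overlapped the 0 cGy mice. The rise after 600 cGy, with 6.58, 6.95, 8.29, 8.33 and 8.62, overlapped them too, and was not found without the mice numbered 10 or higher, which left 1 mouse at 6.95. With the hepatocyte mean as a covariate Hbb-y rose at 7 of 7 doses at 168 hr. It rose by 2.09 ± 0.37 after 600 cGy and 1.21 ± 0.37 (limma adjusted p 0.00501) after 800 cGy. After 1050 cGy the difference was 0.93 ± 0.37 (limma adjusted p 0.0371). Which of the higher doses were called thus depended on that covariate. The mean itself moved with dose, so these values extend a slope shared by all groups and do not show a rise after 800 or 1050 cGy.

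At 24 hr Hbb-y rose after 800 cGy alone, with 7.77, 8.56, 9.44, 9.63 and 10.07, against 6.15, 6.65, 6.65, 6.88 and 7.12 at 0 cGy. The difference was 2.40 ± 0.39, in a comparison where 9.74% of all genes rose, and no mouse overlapped. Without the 1 mouse numbered 10 or higher the difference was 2.73 ± 0.34. The neighbouring doses gave 0.74 and 0.11, neither past the test, and after 300 cGy Hbb-y fell by 0.99, a call lost with the mice in 4 of the 5 places left out in turn and with the hepatocyte mean as a covariate (-0.40, limma adjusted p 0.459). At 6 hr its differences lay between 0.37 and 0.74 and none passed.

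Slopes over all 8 doses state the same contrast in 1 value per time. The slope of Hbb-b2 per 100 cGy was -0.29 ± 0.04 at 48 hr, -0.38 ± 0.04 at 72 hr, -0.60 ± 0.04 at 120 hr and -0.56 ± 0.04 at 168 hr. Hba-x had -0.07, -0.10, -0.17 and -0.15 and Hbb-bh1 -0.04, -0.08, -0.13 and -0.12 at these times. Hbb-y had -0.12 at 48 hr, 0.18 at both 72 and 120 hr and -0.14 at 168 hr, all 4 genes passing the test at each of these times. Of all genes, 47.3%, 53.4%, 82.4% and 82.2% had a slope past the test at these times. At 6 hr no member passed, with 34.7% of genes passing, and at 24 hr Hbb-y alone did (0.13 ± 0.03, 38.7% of genes), a slope that was 0.04 (adjusted p 0.305) without the 800 cGy group. A straight line is a poor summary of Hbb-y at 24 and 72 hr and of all 4 genes at 120 and 168 hr, where the group means turn between doses.

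The slope differed between times for all 4 genes (moderated F test over 6 times, 92.3% of all genes). The F was 57.0 for Hbb-b2, 32.2 for Hba-x, 25.2 for Hbb-y and 20.2 for Hbb-bh1. Among unirradiated mice the level also differed between times for Hba-x, Hbb-bh1 and Hbb-y, as for 50.3% of genes, while Hbb-b2 did not pass (adjusted p 0.0537). Each dose was for that reason set against the unirradiated mice of its own time.

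Whether the adult and embryonic signals changed by different amounts was tested within each mouse, as Hbb-b2 minus the embryonic gene, with an exact two-sided permutation test of 5 against 5 mice. The smallest p that 252 splits allow is 0.00794, and p was adjusted over 36 tests (3 genes, 6 times, 300 and 600 cGy). Between Hbb-b2 and Hbb-y the change was unequal in 8 of 12 tests, at every time from 48 hr on. After 600 cGy at 120 hr Hbb-b2 minus Hbb-y lay between -4.44 and -2.49 in irradiated mice, against 2.09 to 3.89 at 0 cGy, so that the change of Hbb-b2 minus that of Hbb-y was -6.37 (adjusted p 0.0179, exact permutation test). After 300 cGy at 120 hr it lay between -0.19 and 0.38, a change of -2.90 with the same adjusted p. After 600 cGy the change was -2.05 at 48 hr, -4.83 at 72 hr and -4.46 at 168 hr.

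For Hbb-bh1 and Hba-x the change from Hbb-b2 was unequal at 48 and 72 hr after both doses and at 120 and 168 hr after 600 cGy, with -3.58 for Hbb-bh1 and -3.21 for Hba-x after 600 cGy at 72 hr. Both lie near the low end of the array's scale, so these values do not show that the embryonic RNA fell by less. With the mean of all probe sets of a gene in place of the brightest, 11 of the 36 tests passed, against 20, and 5 of those 11 were of Hbb-y.

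**Figure D3:**
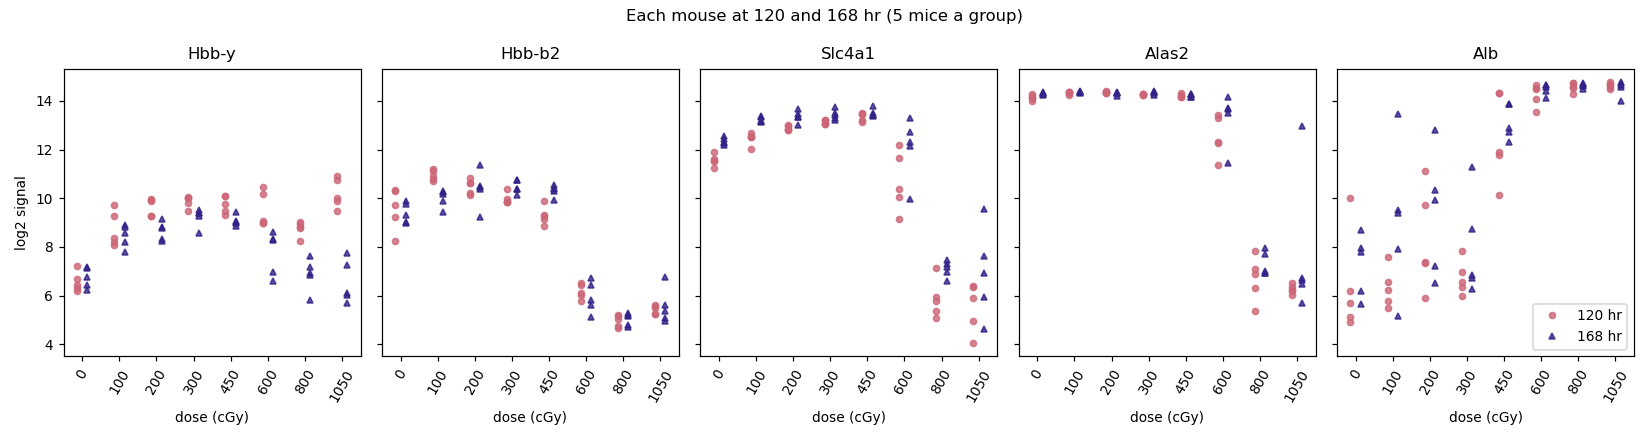
Log2 signal of each mouse at 120 hr (circles) and 168 hr (triangles) against dose for Hbb-y, Hbb-b2, the red cell membrane gene Slc4a1, the haem enzyme gene Alas2 and the liver gene Alb, 5 mice a group. After 1050 cGy at 120 hr Hbb-y is at 9.48 to 10.91 while Hbb-b2 is at 5.23 to 5.63, and Alb is above 13 in all mice given 600 cGy or more.

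Other red cell genes give the setting of these changes. Of 10 measured genes of the red cell membrane and cytoskeleton, 10 fell after 600 cGy at 72 hr, with a median difference of -1.98, against -0.10 over all genes. Of all genes, 31.3% fell in that comparison. Epb42, which anchors the membrane to the cytoskeleton, fell by 4.07 and Slc4a1, the band 3 anion exchanger, by 4.18. Of 13 measured genes of haem synthesis and haemoglobin assembly, 9 fell and 0 rose there (median -0.85), among them Alas2 (-4.59 ± 0.56), Fech (-4.94 ± 0.43), the last enzyme of haem synthesis, and Slc25a37 (-5.22 ± 0.45), which carries iron into mitochondria. Of 5 measured other globin genes 4 fell (median -0.55), and 3 of the 4 genes described here.

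After 300 cGy at 120 hr, when Hbb-y was 3.30 above 0 cGy, all 10 membrane genes rose (median 1.78, against 0.12 over all genes). Over the doses of 120 hr, 18.6% to 39.5% of all genes rose and 22.3% to 31.7% fell. Kel and Rhd, which encode blood group proteins of the red cell surface, rose by 2.46 ± 0.39 and 2.42 ± 0.29, and Tmod1, a cap of the membrane's actin filaments, by 2.16 ± 0.28. In the haem list 5 of 13 genes rose and 0 fell (median 0.30), with 1.61 ± 0.22 for Urod, an enzyme of the pathway, and 0.13 ± 0.56 for Alas2, which did not pass. All 6 genes of dividing cells rose (median 1.76). After 1050 cGy at 120 hr, when Hbb-y was 3.63 above 0 cGy, 0 of the 10 membrane genes rose and 9 fell (median -1.50, against -0.05), and Alas2 was at 6.27 ± 0.18, against 14.14 at 0 cGy.

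So Hbb-y rose at 120 hr both where the membrane genes rose and where they fell. The mean of the membrane list at 120 hr was 8.89 after 300 cGy and 5.23 after 1050 cGy, against 7.15 at 0 cGy. At 168 hr it was 9.68 after 300 cGy and 5.32 after 1050 cGy, against 7.61 at 0 cGy, and there Hbb-y had 9.23 ± 0.37 after 300 cGy and 6.57 ± 0.89 after 1050 cGy, against 6.74 ± 0.42.

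Among 17 regulators of globin genes, 9 rose and 4 fell after 600 cGy at 72 hr (median 0.74), where 25.6% of all genes rose and 31.3% fell. Gata1 (2.45 ± 0.28), Tal1 (2.64 ± 0.27) and Nfe2 (2.30 ± 0.23) rose, all of which platelets and their precursors express as well. Klf1 (-1.13 ± 0.24), Lmo2 (-3.08 ± 0.24), a partner of Gata1 and Tal1, and Bcl11a (-1.33 ± 0.24), a repressor of embryonic globin genes, fell. After 300 cGy at 120 hr 6 of the 17 rose and 5 fell (median -0.02), at a dose where 23.2% of all genes fell. The share of all genes that rose was 18.6% to 39.5% over the doses of that time. Klf1 rose by 1.0 ± 0.24 and Gata1 by 1.13 ± 0.28, while Bcl11a fell by 2.40 ± 0.24 and Myb, which keeps progenitors immature, by 1.16 ± 0.25. Bcl11a is also a B cell gene, and 4 of 4 measured B cell markers fell there (median -2.47), so its level in red cells was not measured.

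Transcripts of liver genes were measured in blood at many doses. Alb, the main blood protein made by liver, was above 13 in some mice at every time from 24 hr on, unirradiated mice of 24, 48 and 72 hr included, whose highest values were 13.70, 13.49 and 13.74. The mean of 12 hepatocyte genes at 120 hr was 5.45 after 100 cGy, 5.27 after 300 cGy, 9.44 after 450 cGy, 11.98 after 600 cGy and 12.72 after 1050 cGy, against 5.14 at 0 cGy, and 12 of 12 rose after 1050 cGy (median 8.07). After 100 and 300 cGy at 120 hr that mean was near its level at 0 cGy while Hbb-y was 2.16 and 3.30 above it. At 168 hr the mean was 12.64 after 800 cGy and 12.81 after 1050 cGy, against 5.20 at 0 cGy, while Hbb-y was 0.14 and -0.17 from 0 cGy and, with that mean as a covariate, 1.21 and 0.93. At the high doses of 120 and 168 hr, results with that covariate extend a slope shared by all groups over this gap. At 72 hr after 600 cGy none of the 12 passed, with a median difference of 2.35 and Alb at 2.39 ± 1.51. Of 5 markers of tissue macrophages, which take up red cells in spleen and liver, 5 rose after 600 cGy at 72 hr and after 300 and 1050 cGy at 120 hr, and their part in the globin values was not tested. The share of all genes that rose was 9.47% to 25.6% over the doses of 72 hr and 18.6% to 39.5% over those of 120 hr.

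The 4 genes were also compared by the course of their differences over the 42 irradiated groups, which share arrays, unirradiated mice and the level of dim probe sets. Pearson's r was 0.96 between Hbb-b2 and Hba-x, 0.93 between Hbb-b2 and Hbb-bh1 and 0.97 between Hba-x and Hbb-bh1. Hbb-y stood at 0.41 with Hbb-b2, 0.53 with Hba-x and 0.59 with Hbb-bh1. With the membrane list r was 0.90 for Hbb-b2, 0.91 for Hba-x, 0.92 for Hbb-bh1 and 0.59 for Hbb-y. With the dim-gene mean r was 0.79, 0.90 and 0.90 for these 3 genes and 0.60 for Hbb-y. Between mice within groups, over 240 mice, r ran from 0.38 for Hbb-bh1 with Hbb-y to 0.65 for Hba-x with Hbb-b2.

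Many genes had a course like that of 3 members and none at that level had one like Hbb-y. An r of at least 0.9 was found with 908 genes for Hbb-b2, 1826 for Hba-x and 1775 for Hbb-bh1, of which 349, 915 and 846 were dim genes, and with 0 genes for Hbb-y. The nearest to Hbb-b2 were Prss29, Selenok, Ube2b, Cript and Psme3, each with an r of 0.98. Nearest to Hba-x were Meg3 (0.99), Myo7b, Mbtps1, Coro2b and Dll4 (0.98), and nearest to Hbb-bh1 were Lce1h, Rundc3a, Slc26a7 (0.98), Glycam1 and Myo7b (0.97). For Hbb-y the nearest 5 were Glul (0.86), St3gal5 (0.85), Atp5b (0.82), Pepd (0.82) and Gas8 (0.81).

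The small set at 168 hr asked the same at 1 lower dose. After 150 cGy Hbb-b2 lay between 9.89 and 12.05 with a median of 10.49 in 10 mice, against 6.91, 7.30 and 8.12 in the 3 unirradiated mice of that time. The difference was 3.33 ± 0.45 (limma, adjusted p 1.82e-05). Hbb-bh1 lay between 5.58 and 6.69 (median 6.08), against 4.32, 4.51 and 4.77, and rose by 1.54 ± 0.20. Hbb-y rose by 1.78 ± 0.41, with 6.98 to 9.07 (median 8.65), against 6.05, 6.50 and 7.04, and Hba-x by 0.84 ± 0.21, with 4.98 to 6.07 (median 5.63), against 4.58, 4.65 and 4.98. All 4 genes rose, as did 33.8% of all genes. Every irradiated mouse lay above every unirradiated one for Hbb-b2 and Hbb-bh1, as in 26.5% of genes, and the lowest irradiated mouse lay at or below the highest unirradiated one for Hbb-y and Hba-x.

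**Figure D4:**
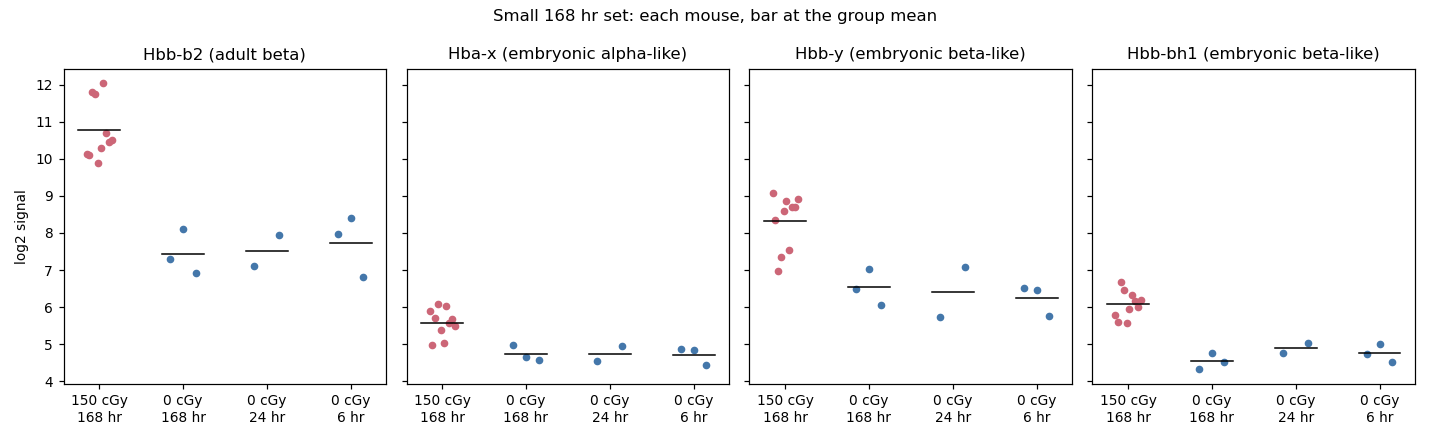
Log2 signal of the 4 globin genes in each mouse of the small set at 168 hr after 150 cGy and in unirradiated mice at 168, 24 and 6 hr; bars are group means (10, 3, 2 and 3 mice). Hbb-b2 averaged 10.77 after 150 cGy, against 7.44 in the unirradiated mice of 168 hr. The 3 irradiated mice at or above 11.75 are those with the lowest Hbb-y, 6.98 to 7.55, and the highest Hbb-bh1, 6.33 to 6.69.

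The dim-gene mean was 4.38 after 150 cGy, against 4.07 in the 168 hr unirradiated mice. With it as a covariate Hbb-b2 (1.76 ± 0.34), Hbb-bh1 (0.91 ± 0.18) and Hbb-y (2.91 ± 0.42) still rose, and Hba-x did not (0.27 ± 0.21, adjusted p 0.346). The 3 irradiated mice with the highest Hbb-b2, 11.75, 11.81 and 12.05, had the lowest Hbb-y of the group, 7.36, 6.98 and 7.55. The same mice also had its lowest Slc4a1, 11.87, 12.31 and 11.91, and its highest Hbb-bh1, 6.47, 6.69 and 6.33. These mice thus differed from the rest in more than Hbb-b2 and Hbb-y. All 10 measured membrane genes rose in this set (median 1.47, against 0.09 over all genes), as did 10 of 13 haem genes (median 0.49), Klf1 (1.63 ± 0.19) and Gata1 (1.19 ± 0.28). Bcl11a fell by 2.58 ± 0.23, beside 4 of 4 B cell markers (median -2.28). Of 12 hepatocyte genes 8 rose (median 1.62), and with their mean as a covariate the 4 globin genes rose by 3.59, 1.60, 1.97 and 1.11 (Hbb-b2, Hbb-bh1, Hbb-y and Hba-x). In the first set at 168 hr, 100 and 200 cGy had given Hbb-b2 differences of 0.62 and 0.99, neither past the test, and no test was run across the sets, since the labels do not say whether they were normalised together.

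The second set asked whether GCSF, LPS or sex changes the response at 6 and 24 hr. The slope of Hbb-y per 100 cGy averaged over both sexes at 6 hr was 0.16 ± 0.05 with GCSF (limma adjusted p 0.00791), 0.12 with LPS (adjusted p 0.075) and 0.14 ± 0.05 with no agent (adjusted p 0.0319). Hbb-bh1 rose with dose under GCSF too, by 0.10 ± 0.04 per 100 cGy (adjusted p 0.0109). The median slope of the dim genes was 0.04 with GCSF, 0.04 with LPS and 0.02 with no agent. These slopes of Hbb-y and Hbb-bh1 were the members' calls in a comparison where 52.6% of all genes passed with GCSF, 32.2% with LPS and 19.9% with no agent. Hbb-b2 and Hba-x had no slope past the test at 6 hr. The call with no agent was lost without the mice in place 2 or 4, and both calls with GCSF without those in place 4. At 24 hr no member had one (at an unadjusted p under 0.05, 0 with GCSF, 1 with LPS and 1 with no agent), where 30.6%, 13% and 41.2% of genes passed with GCSF, LPS and no agent.

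By dose, Hbb-y at 6 hr under GCSF had 7.71 ± 0.39 after 300 cGy (n = 10) and 7.48 ± 0.78 after 600 cGy (n = 9), against 6.53 ± 0.64 at 0 cGy (SD, n = 10). It rose by 1.18 and 1.01, where 27% and 26.2% of all genes rose, and by 1.07 after 300 cGy with LPS, where 10.2% rose. Hbb-bh1 rose there under GCSF too, by 0.64 ± 0.21 after 300 cGy (limma adjusted p 0.00925) and 0.57 ± 0.22 after 600 cGy (limma adjusted p 0.0229). Dim genes moved the same way, with a median difference of 0.24 after each of these doses under GCSF and 0.16 after 300 cGy with LPS. Of the 3717 dim genes 1457 rose after 300 cGy and 1369 after 600 cGy under GCSF, and 416 after 300 cGy with LPS. No slope of a member differed between GCSF or LPS and no agent in limma's test, nor at an unadjusted p under 0.05 (0 of 4 at each time). Of all genes 0.0161% and 6.45% had a different slope with GCSF and LPS at 6 hr, and 0.00807% and 16.5% at 24 hr.

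Agents alone moved 1 member in this set. At 0 cGy and 6 hr Hbb-bh1 was 0.63 ± 0.23 higher with LPS than with no agent (limma adjusted p 0.0231), in a comparison with 35.2% of genes past the test. Hbb-b2 was 0.76 ± 0.38 higher (adjusted p 0.105). With the dim-gene mean as a covariate the Hbb-bh1 difference was 0.10 (limma adjusted p 0.637), and when 1 place was dropped 0 to 2 members passed, 0 without place 1 or 4. GCSF against no agent at 0 cGy gave no member at 6 hr (0% of genes) or 24 hr (0.549%), and LPS gave none at 24 hr (21.9%).

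In the smaller agent set, LPS at 0 cGy and 6 hr raised Hbb-b2 to 9.02, 9.30, 9.48, 9.54, 9.59 and 9.91, against 7.61, 8.25, 8.34, 8.51, 8.51 and 8.98 in mice with no agent. The groups did not overlap and differed by 1.11 ± 0.27 (limma adjusted p 0.00161), and by 0.76 ± 0.22 with the dim-gene mean as a covariate. Hbb-y was higher too, with 7.67, 8.30, 8.46, 8.50, 8.51 and 8.59, against 7.09, 7.44, 7.45, 7.58, 8.01 and 8.08 (0.73 ± 0.23, adjusted p 0.0148), which did not pass with the covariate (0.48, adjusted p 0.0847). These 2 members were called where 26.2% of all genes were. In the second set the LPS difference of Hbb-y was -0.02 ± 0.33, and the 2 sets were not tested against each other.

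Irradiation in the smaller agent set changed 1 member in 1 comparison. After 600 cGy with no agent Hbb-bh1 fell by 0.42 ± 0.13 (limma adjusted p 0.0428), where 7.38% of genes passed. The dim-gene mean was 4.15 there, against 4.22 at 0 cGy with no agent. At the same dose and time with no agent, Hbb-bh1 differed by 0.45 in the first set and by 0.27 ± 0.21 in the second. Neither of those passed, and the sets were not tested against each other. In the smaller agent set no member passed after 150 cGy with no agent (3.83% of genes), after 150 or 600 cGy with GCSF (1.77% and 25%) or with LPS (3.58% and 16%), and GCSF alone gave none (0.549%). At an unadjusted p under 0.05, 2 members passed after 150 cGy with GCSF, 1 after 600 cGy with GCSF and 1 after 150 cGy with no agent.

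**Figure D5:**
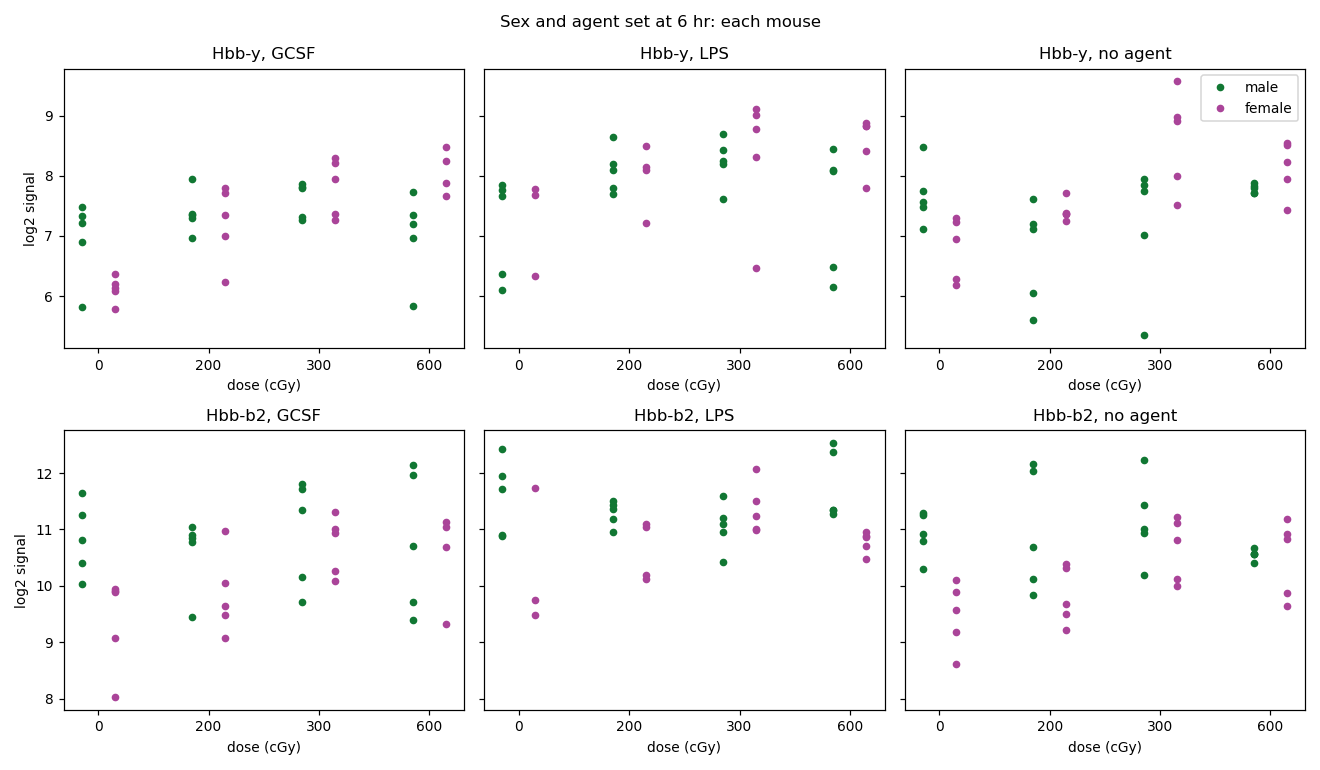
Log2 signal of Hbb-y (top) and Hbb-b2 (bottom) in each male and female mouse of the second set at 6 hr against dose, by agent. With no agent at 0 cGy every male mouse has Hbb-b2 of 10.30 or more and 5 of 5 female mice 10.10 or less, and with GCSF female Hbb-y averages 6.12 at 0 cGy and 8.07 at 600 cGy.

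Male and female mice differed at 0 cGy and 6 hr with no agent. Male mice had 10.30, 10.79, 10.92, 11.26 and 11.29 for Hbb-b2, against 8.61, 9.19, 9.57, 9.89 and 10.10 in female mice, with no overlap and a difference of 1.44 ± 0.50 (limma adjusted p 0.0267). Hbb-bh1 was higher by 0.79 ± 0.30 (adjusted p 0.0367), with 5.45 to 6.22 in male mice, against 4.77 to 5.30 in female mice. Of all genes 27.8% differed there, and at 24 hr 0.0726% did, no member among them. The dim-gene mean was 4.34 in the male mice, against 4.08 in the female mice, and with it as a covariate the Hbb-b2 difference was 0.16 (adjusted p 0.778) and that of Hbb-bh1 0.05 (adjusted p 0.905). Neither gene passed without the mice in place 1, 2 or 5.

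The slope of Hbb-y under GCSF at 6 hr was smaller in male than in female mice, by -0.31 ± 0.10 per 100 cGy (male minus female, limma adjusted p 0.0334), in a comparison where 11.6% of genes passed. By dose from 0 to 600 cGy, male mice averaged 6.95 ± 0.67, 7.39 ± 0.35, 7.61 ± 0.30 and 7.02 ± 0.72. Female mice averaged 6.12 ± 0.21, 7.22 ± 0.63, 7.81 ± 0.48 and 8.07 ± 0.36 at the same doses. With the dim-gene mean as a covariate the difference was -0.33 ± 0.10 (adjusted p 0.0132). It passed without the mice in place 1, and not without those in place 2, 3, 4 or 5. No other slope of a member passed between the sexes, 3 of 4 having an unadjusted p under 0.05 with GCSF at 24 hr and 1 of 4 (Hbb-b2, -0.24) with no agent at 6 hr: at 6 hr 10.3% of genes did with no agent and 8.63% with LPS, and at 24 hr 0% did with no agent, 0.00807% with GCSF and 0.25% with LPS.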

How the data were processed

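Blood RNA was measured on 536 Affymetrix Mouse 430A 2.0 arrays from 534 mice. The deposited values are log2 signals that the authors made with RMA in the affy package, per the submitters' processing notes, which give no version. Globin transcripts were depleted before labelling, per the labels' protocols. Of 22690 probe sets, 20380 had 1 gene symbol, and the brightest set of each of 12393 genes was used, 691 sets with several symbols being left out. Repeat scans of 2 mice were averaged. Each set of mice had its own limma group-means fit (limma 3.58.1, R 4.3.3), with Benjamini-Hochberg adjustment over all genes at 0.05. Values after ± are SDs for group means and SEs for differences. Array runs were read from the middle part of the sample titles, and the labels do not say that it marks a run. The scripts were tested on simulated data. Arrays carry no counts, so precision is limited by the number of mice, which the labels do not tie to litters or cages.

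The 4 genes and all gene lists were chosen with earlier results of these data known. Named genes were the 4 members, the 5 genes nearest to each by Pearson's r over 42 group differences, up to 4 genes of each list with the smallest p, and a fixed set of red cell and liver genes. Alternatives were other normalizations, probe set rules, dose scales, covariates and subsets of mice. The dim-gene covariate, the omission of mice numbered 10 or higher and the hepatocyte covariate in the small 168 hr set were chosen after seeing the data.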

Additional observations from a re-analysis of the deposited data

Results flagged for a closer look

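Of 412 combinations of a globin gene and a group of 4 to 10 mice, 33 (8.01%) had 1 mouse apart from the rest of its group, where chance gives about 1 in 20. The genes share mice and arrays, so the combinations are not independent, and no excess over chance can be read from this share. In the first set, the lone value of Hbb-b2 was 5.57 after 1050 cGy at 24 hr (group median 9.88), 10.23 and 10.31 after 200 and 300 cGy at 48 hr (5.99 and 6.18), 9.86 after 300 cGy at 72 hr (5.96) and 10.40 after 300 cGy at 120 hr (9.85). In the second set it was 9.44 in male mice given GCSF and 200 cGy at 6 hr (10.85) and 11.48 in male mice given 200 cGy alone at 24 hr (10.21). The mouse low for Hbb-b2 after 1050 cGy at 24 hr was also the low one for Hbb-y, at 5.53 (6.99).

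For Hbb-y the other lone values were 8.05 and 4.77 after 300 and 600 cGy at 48 hr (6.07 and 6.24), 8.59 after 300 cGy at 168 hr (9.38), 7.63 in female mice given LPS and 300 cGy at 24 hr (6.80) and 7.67 with LPS at 0 cGy in the smaller agent set (8.48). For Hbb-bh1 they were 5.92 after 1050 cGy at 6 hr (6.65), 6.19 and 5.30 after 300 and 800 cGy at 48 hr (4.91 and 4.93), 6.59 at 0 cGy at 48 hr (5.64), 4.21 after 600 cGy at 72 hr (4.83) and 6.66 after 300 cGy at 168 hr (6.26). Under GCSF, Hbb-bh1 had 6.10 in a female mouse given 200 cGy at 6 hr (5.33), 6.70 and 6.51 in female mice given 600 and 0 cGy at 24 hr (5.36 and 5.79), and 5.25 in a male mouse given 0 cGy at 24 hr (5.58).

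For Hba-x the lone values of the first set were 5.36 after 100 cGy at 6 hr (5.65), 4.22, 5.13 and 4.49 after 100, 200 and 1050 cGy at 48 hr (4.49, 3.76 and 3.96) and 5.37 after 100 cGy at 72 hr (4.78). In the other sets they were 5.29 and 5.96 with GCSF and 600 or 0 cGy in the smaller agent set (4.66 and 4.97), 5.81 in female mice given LPS and 200 cGy at 6 hr (5.37), 5.70 in male mice given GCSF at 0 cGy at 24 hr (5.16) and 5.86 in male mice given 300 cGy alone at 24 hr (4.43).

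The slope on dose differed between the 6 times, with F of 57.0 for Hbb-b2, 32.2 for Hba-x, 25.2 for Hbb-y and 20.2 for Hbb-bh1. The slope of Hbb-y under GCSF at 6 hr differed between male and female mice by -0.31 per 100 cGy (limma adjusted p 0.0334).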

How the results depend on the processing

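Of the slopes and counts that answer a comparison, 460 values under other settings kept their direction and side of the threshold and 59 did not, and the cause of these was not tested. At 6 hr, slopes per 100 cGy with the dim-gene covariate were -0.010 for Hbb-b2, -0.016 for Hbb-bh1 and -0.022 for Hbb-y, opposite in sign to those without it; with only the arrays of that time Hbb-b2 (0.059) and Hba-x (0.031) passed, as did Hbb-bh1 with the mean of its probe sets (0.052) and Hba-x with quantile normalization (0.034) or log2 dose (0.118). At 24 hr, Hbb-b2 had -0.036 and Hba-x -0.001 with the covariate, Hbb-b2 had -0.041 with log2 dose, and Hbb-y did not pass without 800 cGy (0.042). Hbb-bh1 passed at 24 hr with the mean of probe sets (0.048), median centring (0.039) or only the arrays of that time (0.034). At 48 hr Hbb-bh1 did not pass with the mouse number as a replicate block (-0.030), quantile normalization (-0.035), median centring (-0.032) or only the arrays of that time (-0.040). At 168 hr Hbb-y did not pass with the hepatocyte mean as a covariate (-0.015) or log2 dose (-0.142).

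Leaving out the mouse in each place of every group in turn gave slopes of -0.008 to 0.015 for Hbb-y at 6 hr, -0.011 to 0.079 for Hbb-b2 and 0.028 to 0.040 for Hbb-bh1 at 24 hr, and -0.046 to -0.031 for Hbb-bh1 at 48 hr. It gave 0 to 4 members whose 0 cGy level differed between times, against 3, 0 to 1 with a slope at 6 hr with no agent, against 1, 0 to 2 for LPS at 0 cGy, against 1, 0 to 2 for sex, against 2, and 1 to 2 for LPS in the smaller agent set, against 2. It gave 0 of the 36 unequal-change tests, against 20, because 4 against 4 mice allow no p under 0.0286, and the mean of probe sets gave 11. With the dim-gene covariate these counts were 0 for the 0 cGy levels, 3 for the 24 hr slope with no agent (against 0; 1 with the mean of probe sets or median centring), 0 for LPS, 0 for sex and 1 for LPS in the smaller agent set. The LPS count was 2 with median centring, the sex count was 1 with the mean of probe sets or quantile normalization, and the smaller agent set's LPS count was 1 with the mean of probe sets.

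Without the mice numbered 10 or higher, the slopes of the 4 genes at 48 to 168 hr passed, with sizes moved by over 1.5 times for Hbb-bh1 (-0.09, against -0.04) and Hba-x (-0.11, against -0.07) at 48 hr and Hbb-y at 168 hr (-0.24, against -0.14). With the hepatocyte mean as a covariate the slope of Hbb-y at 120 hr was 0.31, against 0.18. The numbers of the mice did not pair them: the mean correlation of deviations between same-numbered mice was 0.02, 0.04, 0.06 and -0.13 in the 4 sets. With the mouse number as a replicate block the count for LPS was 2, and 1 in the smaller agent set. Signal near background limits Hba-x, Hbb-bh1 and the lowest fallen values of Hbb-b2. The fallen values of Hbb-b2 after 100 cGy at 48 hr, 7.75 to 9.14, lay above the highest array median, 5.93.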
